A study of Mus musculus with 8 samples.

Results

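Very wide ATAC-seq peaks are the subject here: peaks longer than 10000 bp (end minus start) on chromosomes 1 to 19, taken from all 8 deposited peak lists. The lists held 599 such peaks among 163534 autosomal peaks, or 0.366%. Merged where they overlapped by at least 1 bp, they formed 128 loci that together spanned 23.1 Mb. They were chosen by their width alone, so their width and the number of covered bases are given as descriptions. The 3 narrowest members were 10024, 10042 and 10063 bp wide, and the 3 widest peaks left out were 9801, 9805 and 9983 bp wide.

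The libraries came from BV2, a mouse microglial cell line, and 2 biological replicates were made in each of 4 groups. BV2 cells grew alone (monoculture) or on top of GL261 glioma cells (co-culture). For each culture, normoxia meant 21% oxygen and hypoxia meant 16 h below 0.1% oxygen. All groups share a medium with 2% serum, formaldehyde fixation, staining for the leukocyte marker CD45 with cell sorting, and treatment of 50000 cells with the Tn5 transposase, which inserts sequencing adapters into open chromatin. BV2 is a single line, and the labels do not give the share of GL261 cells left after the sort.

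ATAC-seq peaks usually mark promoters and enhancers, which are short. Gene clusters that arose by tandem duplication are different: neighbouring copies keep nearly the same sequence over long stretches. Many mouse clusters of this kind belong to reproduction, immunity, chemosensation or the zinc finger proteins that silence transposons, and many are quiet in cells outside those tissues.

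Promoters under these peaks show how alike such copies can be, so 4 pairs are printed, each from one locus. The 250 bases before the annotated start are given 5′ to 3′ on the gene's strand, from RefSeq (GRCm38.p6), and capitals mark the bases that differ within a pair when both are aligned without gaps. Zfp600 (chr4:146156577-146156826, + strand) and Rex2 (chr4:147021600-147021849, + strand), both zinc finger genes on chromosome 4, lie 865 kb apart and differ at 4 bases. Wide peaks covered the whole Zfp600 window in 6 libraries and the whole Rex2 window in 8. Speer4e (chr5:14938476-14938725, - strand) and Gm17019 (chr5:15033008-15033257, - strand) belong to the Speer4 cluster of chromosome 5, differ at 8 bases and were both covered in 8 libraries. Pramel45 (chr5:95108206-95108455, + strand) and Gm46935 (chr5:95425685-95425934, + strand) lie in the Pramel cluster of chromosome 5, differ at 1 base, and were covered in 6 and 2 libraries. Ifnz (chr4:88781881-88782130, + strand) and Gm13278 (chr4:88790645-88790894, + strand) lie in the interferon zeta cluster of chromosome 4, differ at 1 base, and were covered in 3 libraries and 1.
Zfp600: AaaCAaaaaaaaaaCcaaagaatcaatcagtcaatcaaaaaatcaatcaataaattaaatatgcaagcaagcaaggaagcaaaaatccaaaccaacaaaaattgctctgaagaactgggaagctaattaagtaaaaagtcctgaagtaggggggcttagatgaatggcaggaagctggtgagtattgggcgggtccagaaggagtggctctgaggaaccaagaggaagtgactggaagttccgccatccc
Rex2: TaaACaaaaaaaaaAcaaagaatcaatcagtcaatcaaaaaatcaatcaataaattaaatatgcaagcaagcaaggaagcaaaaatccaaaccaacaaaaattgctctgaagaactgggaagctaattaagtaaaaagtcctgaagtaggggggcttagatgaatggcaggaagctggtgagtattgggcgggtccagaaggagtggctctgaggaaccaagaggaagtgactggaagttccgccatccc
Speer4e: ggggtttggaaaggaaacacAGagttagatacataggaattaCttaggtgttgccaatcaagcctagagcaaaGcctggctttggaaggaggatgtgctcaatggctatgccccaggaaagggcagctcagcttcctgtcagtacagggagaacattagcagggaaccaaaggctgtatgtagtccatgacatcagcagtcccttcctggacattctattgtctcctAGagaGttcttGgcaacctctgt
Gm17019: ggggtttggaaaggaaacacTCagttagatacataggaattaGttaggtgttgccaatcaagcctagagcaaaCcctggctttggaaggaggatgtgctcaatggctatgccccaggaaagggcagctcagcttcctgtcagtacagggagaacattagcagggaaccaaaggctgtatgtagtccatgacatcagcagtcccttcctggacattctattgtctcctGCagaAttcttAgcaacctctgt
Pramel45: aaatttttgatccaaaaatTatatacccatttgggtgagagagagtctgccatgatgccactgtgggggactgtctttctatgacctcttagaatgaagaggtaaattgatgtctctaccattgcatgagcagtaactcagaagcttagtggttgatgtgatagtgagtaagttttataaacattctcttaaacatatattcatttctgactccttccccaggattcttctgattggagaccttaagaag
Gm46935: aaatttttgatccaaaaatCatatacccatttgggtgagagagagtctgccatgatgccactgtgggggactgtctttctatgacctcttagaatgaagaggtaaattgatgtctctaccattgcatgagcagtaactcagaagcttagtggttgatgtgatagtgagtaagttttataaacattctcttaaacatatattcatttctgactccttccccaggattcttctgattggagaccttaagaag
Ifnz: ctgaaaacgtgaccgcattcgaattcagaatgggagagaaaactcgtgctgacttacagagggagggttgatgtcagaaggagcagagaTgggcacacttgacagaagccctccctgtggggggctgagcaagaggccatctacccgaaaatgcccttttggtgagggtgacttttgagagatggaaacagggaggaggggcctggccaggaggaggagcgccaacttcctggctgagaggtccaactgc
Gm13278: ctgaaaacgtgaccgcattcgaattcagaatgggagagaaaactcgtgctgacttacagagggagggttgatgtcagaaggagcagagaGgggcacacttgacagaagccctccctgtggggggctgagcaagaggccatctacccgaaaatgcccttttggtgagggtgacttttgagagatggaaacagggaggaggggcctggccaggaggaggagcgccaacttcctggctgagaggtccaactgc

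These pairs were picked for their likeness, and 17 of the 128 loci held a pair of promoters with at least 90% identity in the 250 bases before the start. Only pairs sharing a stretch of 31 bases were compared, and loci with fewer than 2 RefSeq promoters could not hold a pair. RefSeq gives 395 promoters (250 bases before to 50 after the start) of 319 genes inside the loci. Of these, 322 (81.5%) shared at least 1 word of 31 bases, on either strand, with the promoter of another gene on chromosomes 1 to 19. Elsewhere on these chromosomes 9.24% of 31001 promoters did. At least 50% of all words were shared with 1 other promoter in 57.2% of promoters inside the loci and in 2.20% of the others. For 107 promoters (27.1%) such a partner lay in the same locus. Within the Pramel locus this held for 12 of 12 promoters, within the Ifnz locus for 10 of 10 and within the Speer4 locus on chr5:14901602-15703508 for 7 of 11. In the zinc finger locus of chromosome 4, which holds Zfp600 and Rex2, it held for 6 of 18. Some other recurrent loci had no such promoter, among them those of Gm14305 (0 of 5), Zfp970 (0 of 8) and Gm40469 (0 of 4). The promoters inside the loci also held fewer CpG dinucleotides, with a median of 2 against 7. The letters ACGTG, the core of the hypoxia response element, were found on either strand in 13.7% of them, against 19.8% of the promoters elsewhere. CCAAT, searched the same way and unable to overlap ACGTG, was found in 52.4% against 37.1%. Promoters are not independent of each other, above all copies, so these shares describe the reference and carry no test.

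**Figure D1:**
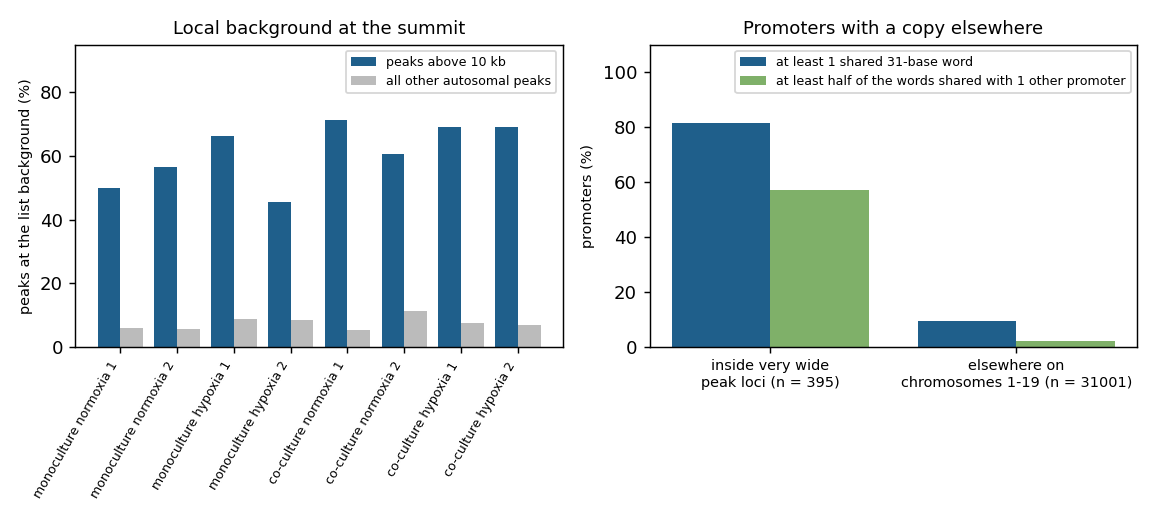
Left, percentage of peaks per library whose local background at the summit lay within 1% of the list's commonest value, for autosomal peaks above 10 kb (blue) and all other autosomal peaks (grey). Right, percentage of RefSeq promoters that share 31-base words with the promoter of another gene, inside and outside the loci (blue, at least 1 word; green, at least 50% of the words with 1 other promoter). Blue exceeds grey in all 8 libraries on the left, from 45.5% to 71.4% against 5.23% to 11.4%, and 81.5% of promoters inside the loci share a word.

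The peak lists held 9910 to 29658 peaks. They contain no read totals, so depth was read from the peaks themselves: the commonest local background of a list was 0.758 to 1.45 fragments per position. Microglia and macrophage marker genes had a peak in the gene or within 10 kb in 7 to 12 of 12 genes per library. Markers of glial, neural stem and glioma cells had one in 1 to 3 of 10 genes in the monocultures and in 3 to 7 in the co-cultures, among them Sox2, Nes and Gfap. Markers of T, B, endothelial and fibroblast cells had one in 1 to 3 of 8 genes in monoculture and in 3 to 5 in co-culture. Olig2, Sox9 and Fabp7 had no peak in any library. The part of these cells in the wide peaks was not tested.

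Few in number, the wide peaks made up much of the covered sequence. Over all lists 45.3% of the covered autosomal bp lay in them. Monoculture normoxia had 72 and 78 wide peaks, which held 57.3% and 65.0% of the covered bp. Monoculture hypoxia had 77 and 66, holding 36.2% and 34.4%. Co-culture normoxia had 56 and 104, holding 36.7% and 55.6%, and co-culture hypoxia had 68 and 78, holding 29.8% and 53.1%. The replicates of co-culture normoxia were therefore far apart although their lists were nearly equally long, with 21790 and 21826 peaks. The median wide peak was 53.5 kb long, 209 exceeded 100 kb, 40 exceeded 500 kb and 2 exceeded 1 Mb. The widest, 1957 kb in co-culture normoxia replicate 2, lay over the Zfp600 and Rex2 cluster. In contrast, the 99th percentile of all other autosomal peaks was 1257 to 1759 bp, and 111 peaks were 5 to 10 kb wide.

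**Figure D2:**
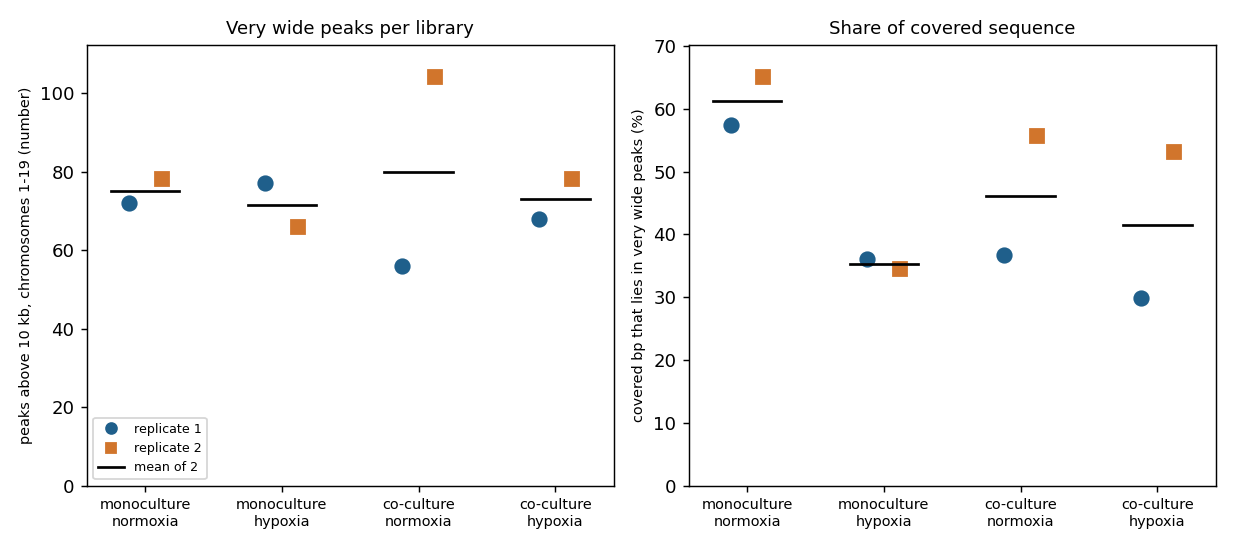
Number of autosomal peaks above 10 kb (left) and the percentage of covered autosomal bp that lies in them (right) for each library, by group. Circles are replicate 1, squares replicate 2 and black bars the mean of both. The counts run from 56 to 104, both in co-culture normoxia, and the share is highest in the monoculture normoxia libraries, at 57.3% and 65.0%.

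The loci lay on 17 of the 19 autosomes, with 24 on chromosome 14, 17 on chromosome 13, 14 on chromosome 7, 13 on chromosome 2, 12 on chromosome 12 and 10 on chromosome 4. Their median width was 83.5 kb. The wide peaks overlapped 841 RefSeq genes, of which 315 (37.5%) were protein coding and 313 (37.2%) were pseudogenes. Names of the Gm, LOC, Rik or other clone-like kind, with microRNA and tRNA names counted among them, made up 76.1%. Of all 47042 autosomal genes in the table, 43.9% were protein coding, 20.2% were pseudogenes and 53.1% had such names. Of the 16861 genes under other peaks, 73.4% were protein coding, 2.40% were pseudogenes and 27.8% had such names. Members of 16 families could be named, and 46 of the 128 loci held at least 1. In 11 loci there was no annotated gene. The share of all autosomal genes under wide peaks was 1.79% (841 of 47042), and the family counts below stand beside it without a test. Family loci outside the 30 that were wide in at least 6 libraries are described after their values were seen.

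Zinc finger genes were the family spread over most loci, with 23 of 406 Zfp genes under wide peaks in 13 loci on chromosomes 2, 4, 13 and 17. The largest such locus, chr4:145435287-147419061, overlapped 66 genes, among them 10 Zfp genes and Rex2, and had wide peaks in all 8 libraries. Peaks covered 1630 and 1888 kb of it in monoculture normoxia, 1555 and 1794 kb in monoculture hypoxia, 1781 and 1965 kb in co-culture normoxia, and 1333 and 1785 kb in co-culture hypoxia. Every library thus had most of the locus, and in each group replicate 2 covered more of it than replicate 1. The highest deposited −log10 p of a wide peak there was 52.5 to 122 per list. On the distal end of chromosome 2 a row of 9 loci between bases 175640251 and 178015922 held Zfp966, Zfp970, Zfp972 and Gm-named neighbours. Of the recurrent loci in this row, chr2:176713712-177201410 was wide in all 8 libraries, although its covered length ran from 48.6 kb in monoculture hypoxia replicate 1 to 471 kb in monoculture normoxia replicate 2. Zfp960 and Zfp97 on chr17:17009726-17192811 were wide in 6 libraries and reached 180 kb in co-culture normoxia replicate 2. In monoculture normoxia replicate 1 and co-culture hypoxia replicate 2 peaks covered 2.66 and 2.49 kb of that locus.

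Genes of the male and female germ line formed the next group. The Speer genes encode glutamate-rich proteins of the testis, and 6 of 15 were covered. Their main locus, chr5:14901602-15703508, had the narrowest range in percent of the locus covered, 95.6% to 99.3%, among the 30 loci wide in at least 6 libraries. Peaks covered 783 and 784 kb in monoculture normoxia, 788 and 767 kb in monoculture hypoxia, 785 and 796 kb in co-culture normoxia, and 788 and 781 kb in co-culture hypoxia. The widest of these peaks was 728 to 733 kb long in 7 libraries and 791 kb in co-culture normoxia replicate 2. The highest −log10 p of a wide peak there was 101 and 126 in monoculture normoxia, 201 and 215 in monoculture hypoxia, 131 and 237 in co-culture normoxia, and 173 and 182 in co-culture hypoxia. The peak with that value ranked at or above the 99.4th percentile of its own list in all 8. The second locus, with Speer4a on chr5:25924041-26073162, was also wide in 8 libraries, yet its peaks reached a −log10 p of at most 23.0. The third, with Speer1 on chr5:10954292-11776069, was wide in 7 libraries, and peaks covered from 7.65 kb of it in co-culture hypoxia replicate 1 to 720 kb in co-culture normoxia replicate 2.

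Pramel genes, relatives of the tumour antigen PRAME that are active in germ cells and early embryos, had 13 of 46 members under wide peaks, all in chr5:93935588-95608067. This locus was wide in all 8 libraries. Peaks covered 70.4% and 95.1% of it in monoculture normoxia, 64.7% and 44.5% in monoculture hypoxia, 63.6% and 92.3% in co-culture normoxia, and 19.7% and 68.8% in co-culture hypoxia. The lowest value and one of 68.8% came from replicates of the same group. All 32 wide peaks of the locus had a local background within 1% of their list's commonest value, and their −log10 p stayed between 4.83 and 18.8. Loci of oocyte and early embryo genes are given next. The Obox homeobox family had 15 of 53 members under wide peaks, none of them protein coding, in 5 loci of chromosome 7 wide in at most 2 libraries. Zscan4 genes, which are switched on in embryos at the time of genome activation, had 4 of 9 members covered in 2 loci, each wide in at most 2 libraries. Smok2a, Smok2b and Tcp10c of the t complex on chromosome 17, a locus singled out after its values were seen, lay under wide peaks in 5 libraries.

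Immune gene clusters were next. The locus of Sp100, Sp110 and Sp140, proteins of nuclear bodies, on chr1:84962624-85652677 was wide in all 8 libraries. Peaks covered 621 and 609 kb in monoculture normoxia, 536 and 682 kb in monoculture hypoxia, 660 and 690 kb in co-culture normoxia, and 678 and 666 kb in co-culture hypoxia. Its highest −log10 p was 75.8 to 215 per list. Sirpb1a, Sirpb1b and Sirpb1c, all 3 Sirpb genes of the table and coding for receptors of myeloid cells, lay on chr3:15368701-15838696. Peaks covered 224 and 231 kb there in monoculture normoxia and 216 and 372 kb in monoculture hypoxia. They covered 2.63 and 422 kb in co-culture normoxia, and 206 and 138 kb in co-culture hypoxia. The locus was wide in every library except co-culture normoxia replicate 1, where the widest peak was 0.858 kb.

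The interferon zeta cluster on chr4:88760049-88797411, where 10 of the 11 genes are protein coding, was wide in 6 libraries. Peaks covered 0.502 and 8.22 kb of it in monoculture normoxia, 17.1 and 24.7 kb in monoculture hypoxia, 23.6 and 18.4 kb in co-culture normoxia, and 16.2 and 37.4 kb in co-culture hypoxia. Both monoculture normoxia libraries were below the other 6, and their lists were also the shortest, with 13333 and 9910 peaks. The part of list length in this was not tested. The wide peaks there had a −log10 p of 30.0 to 50.6, and none had a local background at the list's commonest value. H60b and Raet1d, ligands of the NKG2D receptor of natural killer cells, lay in a locus of chromosome 10 that was wide in 3 libraries and is named after its values were seen. Peaks covered 181 to 188 kb of it in co-culture normoxia replicate 2 and both co-culture hypoxia libraries, and at most 4.62 kb in the other 5.

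Immunoglobulin heavy chain variable genes, which B cells join to build antibodies, had 26 of 183 members under wide peaks in 6 loci of chromosome 12. The main locus, chr12:115195821-115307226, was wide in 7 libraries. Peaks covered 16.8 kb of it in co-culture normoxia replicate 1 and 91.1 to 109 kb in the others. Alpha-defensins, antimicrobial peptides of Paneth cells in the gut, had 19 of 40 members under wide peaks in 1 locus of chromosome 8. This locus, singled out after its values were seen, was wide only in co-culture normoxia replicate 2 and co-culture hypoxia replicate 2, with 111 and 369 kb covered, and had no peak in 4 libraries.

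Genes of the liver and of chemosensation were also covered. Mup genes, which encode the major urinary proteins made in liver, had 10 of 46 members covered in 3 loci of chromosome 4, and the −log10 p of those peaks did not exceed 9.53. Cyp3a41a and Cyp3a41b, cytochrome P450 genes of the liver, lay under wide peaks in 5 libraries. Vomeronasal receptor genes, which serve pheromone sensing, had 11 of 251 Vmn2r members (4.38%) and 5 of 372 Vmn1r members (1.34%) under wide peaks, against 1.79% of all genes. The Vmn2r members lay in 6 loci, among them the zinc finger locus of chromosome 4. None of the 11 Vmn2r members was protein coding. Histone and tRNA genes were covered as well. The locus chr13:21752069-21997426 overlapped 12 histone and 25 tRNA genes and was wide in 6 libraries, with 22.3 kb covered in co-culture hypoxia replicate 2 and 245 kb in co-culture normoxia replicate 2.

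Several recurrent loci held mainly genes without a family name. On chromosome 8, chr8:19688356-20451112 with 4930467E23Rik and Gm15319 was wide in all 8 libraries. Peaks covered 730 and 705 kb in monoculture normoxia, 731 and 741 kb in monoculture hypoxia, 733 and 757 kb in co-culture normoxia, and 729 and 705 kb in co-culture hypoxia. Each library thus covered at least 92.4% of it. The neighbouring chr8:20499578-20798851 was wide in 8 libraries too, but with 14 kb covered in monoculture normoxia replicate 1 and 148 to 277 kb in the others. On chromosome 14, chr14:44209209-44643158 with BC061237 and Gm-named genes was wide in all 8, with 23.4 to 328 kb covered, and both extremes were monoculture normoxia libraries. The locus of BC002059 and Gm51425 on chr17:16951039-17006124 was wide in all 8 libraries with 45.7 to 55.1 kb covered. Its −log10 p was 113 in monoculture hypoxia replicate 2 and 129 in co-culture normoxia replicate 2, and 10.0 to 43.0 in the other 6. The first 2 libraries had over 54 kb covered in 1 peak, with the summit 376 and 375 bp from an end of it. Their 2 values therefore describe an edge and not the whole locus. On chr8:55113284-55362587, with Gm51571 and Gm51572, peaks covered 235 to 249 kb in 7 libraries and 3.56 kb in monoculture hypoxia replicate 1. Loci without any gene included chr9:3000259-3019405 near the start of the chromosome 9 sequence, singled out after its values were seen. Peaks covered 14 to 18.7 kb of it in every library, but only 2 libraries had a single peak above 10 kb, and 1 of these had the highest −log10 p of all wide peaks, 803.

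**Figure D3:**
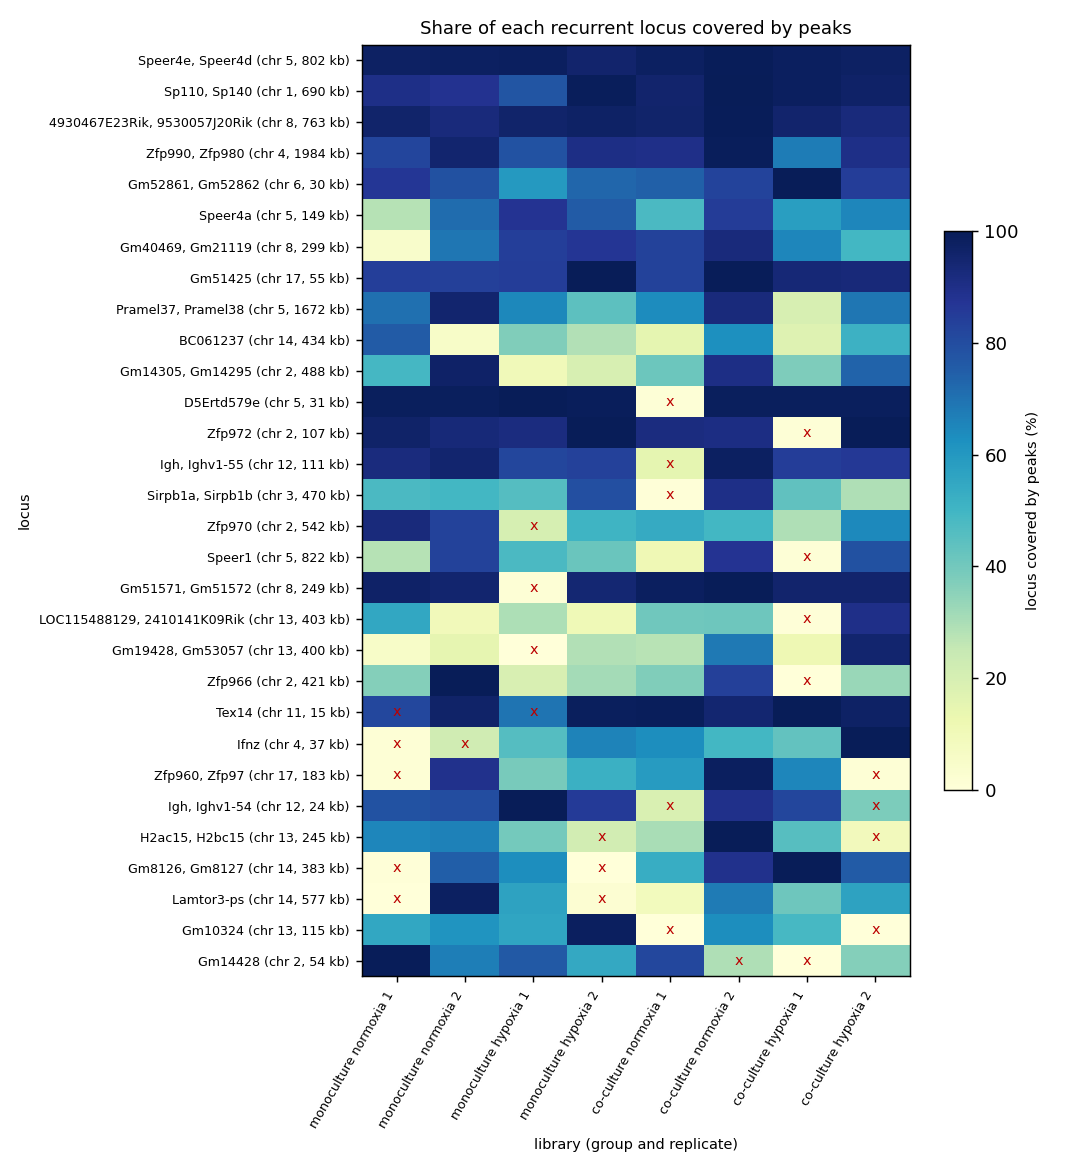
Percentage of each of the 30 loci with a wide peak in at least 6 libraries (vertical axis, named by up to 2 genes) that peaks covered in each of the 8 libraries (horizontal axis), from pale (0%) to dark (100%). A red x marks a library without a peak above 10 kb at that locus. The Speer4e row is dark throughout, from 95.6% to 99.3%, whereas the Pramel37 row runs from 19.7% to 95.1%.

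Recurrence ran from 1 library to all 8. A wide peak was present in all 8 libraries at 11 loci, in 7 at 10, in 6 at 9, in 2 to 5 at 41, and in 1 at 57. The count of 11 was 6 with a width above 20 kb, and 5 with a −log10 q of at least 10, in lists of equal number, or with at least 50% of the locus covered. Any peak, wide or not, was present in all 8 libraries at 42 loci (32.8%), and 15.6% of all 39458 merged autosomal regions had one in all 8. The 42 became 19 with the stricter q, 18 in lists of equal number and 8 with at least 50% of the locus covered, settings for which the share over all regions was not computed. A locus is longer than most regions and so offers more bases for a peak, and this comparison was not adjusted for length. Loci wide in 1 library had a median width of 35.1 kb, those wide in 2 to 5 had 147 kb, and those wide in 6 or more had 341 kb. The 57 loci wide in 1 library were unevenly distributed: 18 came from co-culture normoxia replicate 2, 13 from co-culture hypoxia replicate 2 and none from co-culture normoxia replicate 1. Monoculture normoxia gave 5 and 9, monoculture hypoxia 3 and 7, and co-culture hypoxia replicate 1 gave 2.

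The fold enrichment and −log10 p that the authors deposited for each peak describe its summit and rank peaks within 1 list. The fold of the wide peaks was 2.20 to 49.6, with a median of 6.71. Their −log10 p was 4.51 to 803, with a median of 11.6. In 442 of the 599 it was below 20, and in 25 above 100. Most wide peaks were therefore not strong ones: in each list between 26.0% and 43.6% of them had a −log10 p above the median of their list, and their median percentile was 22.4 to 43.8. Those over 500 kb differed as a set. Their median fold was 19.4, their median −log10 p 81.6 and their median percentile 98.0, against 5.40, 8.33 and 16.5 for those of 10 to 20 kb. Many of them were the same loci seen again in several libraries, among them Speer4 in all 8, so they are not separate cases. Wide peaks of the Pramel and Speer1 loci, up to 940 and 672 kb long, had a −log10 p of at most 18.8 and 21.3. Width and −log10 p were taken from the same peak call, so their relation is a description.

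**Figure D4:**
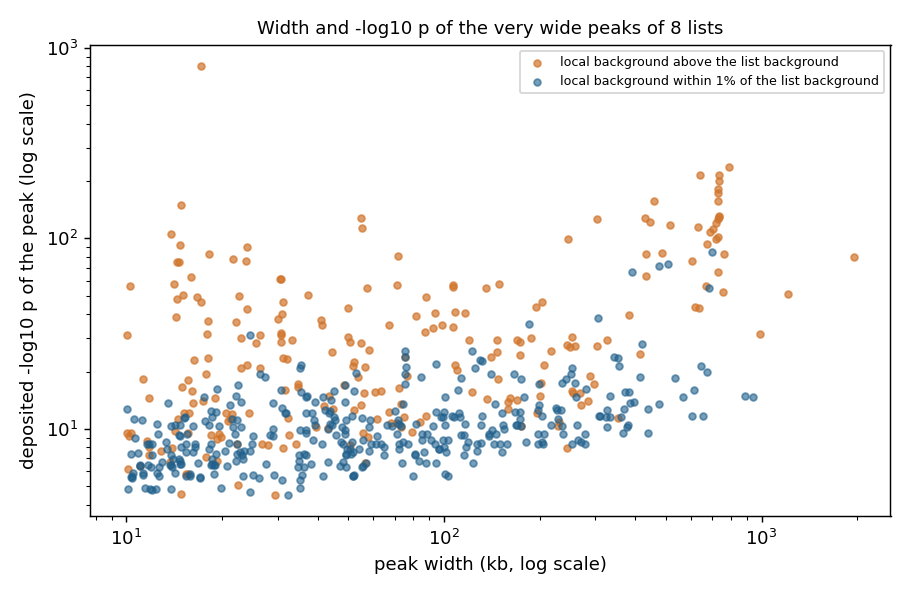
Width in kb (horizontal, log scale) and deposited −log10 p (vertical, log scale) of the 599 wide peaks of all 8 lists, each point a peak. Blue points have a local background within 1% of the list's commonest value, and orange points a higher one. Most points lie below a −log10 p of 20, and those above 100 are orange.

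Fold and −log10 p together give the number of fragments at the summit and the local background against which the peak was judged. The median summit of a wide peak held 12 to 17 fragments per list, and that of another autosomal peak 18 to 30. The local background of 365 of the 599 wide peaks (60.9%) lay within 1% of the commonest value of their list. Among the other autosomal peaks 7.67% did. The share was higher for the wide peaks in 8 of 8 lists, with 45.5% to 71.4% against 5.23% to 11.4%. Among the 30 recurrent loci, 9 had every wide peak at that value, among them the Pramel, Speer4a and Speer1 loci, and their −log10 p reached at most 28.1. At 5 loci no wide peak was at that value: Speer4, Sp100, Ifnz, the Tex14 locus and chr6:47739463-47769918, where −log10 p ran from 12.2 to 237. The main Speer4 peak was judged against 2.25 to 6.50 times the list's commonest background and had 107 to 200 fragments at its summit, whereas the strongest Pramel peaks had 12 to 20.

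Summits showed where in a locus the signal was highest. In 71 loci wide in at least 2 libraries, the summits of 171 of 803 pairs of libraries (21.3%) lay within 500 bp of each other, and the median range of summits over a locus was 66.1 kb. At 5 loci all summits agreed within 500 bp. The summit lay within 5% of the peak's length from one of its ends in 98 wide peaks (16.4%) and in 0.766% of the other autosomal peaks. In bp, 5% is far longer for a wide peak (median 53.5 kb) than for another peak (median 428 to 596 bp per list). The 2 shares therefore do not measure a like distance and are not compared.

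The clearest case was chr5:36630388-36661554, inside the gene D5Ertd579e. Peaks covered 30.7 and 30.7 kb in monoculture normoxia, 31.1 and 30.8 kb in monoculture hypoxia, 0.343 and 30.7 kb in co-culture normoxia, and 30.7 and 30.7 kb in co-culture hypoxia. The 7 wide peaks began within 0.13 kb and ended within 0.362 kb of each other. Their summits lay within 0.094 kb of each other and 122 to 262 bp from one end of the peak, and the −log10 p was 16.0 to 60.9. Both edges lay close to the ends of Gm32584, a gene model of 31.5 kb annotated as protein coding within D5Ertd579e. The peaks began 225 to 355 bp inside its lower coordinate and ended at -466 to -104 bp from its upper one, where minus means inside the gene. No other gene had both ends within 500 bp of the edges of a wide peak. A second compact locus, chr11:87442808-87457679, lay inside Tex14, a gene of testis intercellular bridges, and held Rnu3b1 and Rnu3b3, which encode U3 small nucleolar RNA. It was wide in 6 libraries, with −log10 p of 38.7 to 149. In monoculture normoxia replicate 1 and monoculture hypoxia replicate 1 its widest peaks, 9.79 and 9.28 kb, fell just short of the threshold.

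The design allows oxygen and culture to be compared. Monoculture had 75.0 ± 4.24 wide peaks in normoxia and 71.5 ± 7.78 in hypoxia, and co-culture had 80.0 ± 33.9 and 73.0 ± 7.07 (SD, 2 libraries per group). The mean difference of hypoxia minus normoxia was -5.25 peaks by a two-sided exact permutation test that kept culture fixed (p = 0.778 over 36 relabellings). Co-culture minus monoculture was 3.25 peaks, with oxygen kept fixed (exact permutation p = 0.778). In the lists as deposited, each difference was smaller than the pooled SD between replicates, 17.9 peaks. Without co-culture normoxia replicate 2, the differences turned to 6.75 and -8.75. Without replicate 1 of that group they were -17.25 and 15.25. In lists cut to an equal number of peaks, the differences were -26.25 (exact permutation p = 0.167) and -20.25 (p = 0.111). That number, 9519, is the autosomal length of the monoculture normoxia replicate 2 list, which lost no peak. All hypoxic and co-culture lists were longer and lost many. Wide peaks mostly ranked low in their lists (median percentile 22.4 to 43.8), so effects of the cut and of the groups cannot be told apart here.

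The share of covered bp in wide peaks was 61.2% ± 5.41 for monoculture in normoxia and 35.3% ± 1.22 in hypoxia. For co-culture it was 46.2% ± 13.3 and 41.4% ± 16.5 (SD, 2 libraries per group). The share, like the peak count, rests on the widths by which the peaks were chosen, so both comparisons serve as descriptions. Hypoxia minus normoxia of the share was -15.3 percentage points (exact permutation p = 0.111), more than the pooled SD of 10.95 points. It was -9.49 points without co-culture hypoxia replicate 1 and -10.6 without co-culture normoxia replicate 2, both within that SD. It was -25.9 points in monoculture, where the libraries of both groups did not overlap, and -4.74 in co-culture, where they did. Co-culture minus monoculture was -4.42 points (exact permutation p = 0.556), within the pooled SD, and it turned to 0.304 without co-culture normoxia replicate 1 and to 1.40 without co-culture hypoxia replicate 1. Without co-culture hypoxia replicate 2 it was -10.2 points (exact permutation p = 0.0556, the smallest possible). The smallest p that 36 relabellings can give is 0.0556, and 2 libraries against 2 cannot go below 0.333. In monoculture the lists were longer in hypoxia than in normoxia. In lists cut to an equal number of peaks, hypoxia minus normoxia of the share was -14.4 points (exact permutation p = 0.111) and co-culture minus monoculture -4.35 points (p = 0.611).

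Few loci separated the groups. At no locus did all 4 hypoxic libraries have a peak and the normoxic ones none (2.12% of all merged autosomal regions did) or the reverse (0.0203%). All 4 co-culture libraries, and none of the monocultures, had a peak at 1 locus (2% of all regions), chr14:43066040-43159761 with Gm8104 and Gm8094. Its covered length was 0.815, 2.57, 0.749 and 93.7 kb in the co-cultures, so a wide peak was present in 1 of them. The reverse was found at none (0.0253%). Covered length was higher in every hypoxic than in every normoxic library at 4 loci (7.23%): D5Ertd579e, and those of Tgtp1, Srp54b and Dynlt1b. The last 3 were wide only in hypoxic libraries and entered the set through them. The count therefore cannot be weighed against the share over all regions. At D5Ertd579e the 4 hypoxic libraries had 30.728 to 31.071 kb, and the normoxic ones at most 30.709 kb. Tgtp1 encodes a GTPase induced by interferon gamma. Its locus had 150 kb covered in monoculture hypoxia replicate 2, 0.95 to 6.64 kb in the other hypoxic libraries and 0.525 to 0.943 kb in the normoxic ones. Srp54b had 75.4 kb in co-culture hypoxia replicate 2 and at most 0.494 kb elsewhere. At Dynlt1b, a dynein light chain gene, the co-culture hypoxia libraries had 123 and 110 kb, the monoculture hypoxia libraries 5.11 and 1.99 kb, and the normoxic libraries 0 to 1.95 kb.

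Covered length was lower in every hypoxic than in every normoxic library at 1 locus (0.106% of all regions), chr2:175640251-176061082 with Zfp966. It was 154 and 421 kb in monoculture normoxia, 157 and 352 kb in co-culture normoxia, 81.2 and 130 kb in monoculture hypoxia, and 0.953 and 140 kb in co-culture hypoxia. Higher coverage in every co-culture library was found at 2 loci (4.27%), an Obox4 pseudogene locus of chromosome 7 and the Gm8104 locus. Both were wide only in co-culture libraries. Lower coverage in every co-culture library was found at 3 loci (0.157%), those of Gm14322 on chromosome 2, the gene-free locus of chromosome 9 and an Ighv locus with Ighv1-65. The Gm14322 and Ighv1-65 loci were wide only in monoculture libraries. Such loci entered the set through the libraries where they are high, so neither count can be weighed against its share over all regions. The Ighv1-65 locus had 34.9, 224, 33.6 and 189 kb in the monocultures and at most 8.68 kb in the co-cultures. The chromosome 9 locus had 16.7 to 18.7 kb in the monocultures and 14 to 15.9 kb in the co-cultures. These loci are named because their libraries did not overlap, and no test was made of them.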

How the data were processed

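ATAC-seq was analysed from 1 peak list per library, 8 in all, so the authors called peaks per library and not on pooled replicates. The submitters' processing notes name Trimmomatic 0.36, HISAT2 2.1.0, Picard, SAMtools, deepTools, MACS2 2.1.1.2 and the mm10 build, without role or order. The options of the aligner and caller, the treatment of reads with several matches, and any Tn5 shift are not given in the sources used here, and each could change where a wide peak begins and ends. The authors deposited for every peak a score, a fold (a ratio of summit to background), p and q as −log10 values, and the summit as an offset in bp. The lowest deposited −log10 q was 2.00. Folds and p-values are each list's own, and ranks were taken within a list. Where values of several lists are pooled or set side by side, they are descriptions and were not tested between lists.

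Wide peaks (above 10000 bp, chromosomes 1 to 19) were merged into loci at 1 bp of overlap. The deposited fold was taken as (n + 1)/(b + 1) and the −log10 p as the upper Poisson tail beyond n fragments given a background b. Solving both gave back at least 99.9899% of each list's −log10 p to within 0.001. Genes and promoters came from RefSeq (GRCm38.p6), and families were read from gene symbols. Loci were named where at least 6 libraries had a wide peak. That left 30 of 61 candidates, the others being loci over a listed family or with a list's widest or highest ranked peak. The members and lists were chosen with earlier results of these data known. Values per library were compared with two-sided exact permutation tests. Alternatives were other width limits, a stricter q, lists of equal number, other merging, coverage rules and a replicate block, and each library left out in turn. The solving, merging and coverage steps were tested on simulated data. Scripts ran in Python 3.11.15 with pandas 2.3.3, numpy 2.4.6 and scipy 1.17.1, and plots were drawn with matplotlib 3.10.9.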

Additional observations from a re-analysis of the deposited data

Results flagged for a closer look

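Peaks above 10 kb on the X chromosome were outside the comparisons above and numbered 103 over the 8 lists, in 24 loci. Each list held 8 to 19. They stand here because they lie in data the comparisons do not use, and no library served as a control for them. Their median width was 119 kb and the widest measured 1494 kb. The local background at the summit lay at the list's commonest value in 95.1% of them.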

How the results depend on the processing

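The number of loci was 61 with a −log10 q of at least 10 and 83 in lists of equal number, against 128. Loci wide in all 8 libraries numbered 6 with a width above 20 kb, 5 with the stricter q, 5 in lists of equal number and 5 when at least 50% of a locus had to be covered, against 11. Loci with any peak in all 8 numbered 19, 18 and 8 with the last 3 settings, against 42. In lists of equal number, co-culture minus monoculture turned to -20.25 wide peaks (exact permutation p = 0.111) and hypoxia minus normoxia grew to -26.25 (p = 0.167). Both were beyond the pooled SD of 17.9 of the lists as deposited. The cut left the shortest list whole and took most peaks from the longest, so list length enters both values. Leaving out 1 library gave hypoxia minus normoxia from -17.25 to 6.75 peaks and from -21.1 to -9.49 points of the covered share. It gave co-culture minus monoculture from -8.75 to 15.25 peaks and from -10.2 to 1.40 points, turning at 0.304 and 1.40. Loci then numbered 122 to 130, those wide in all libraries 11 to 15 and those with any peak in all 41 to 45. Differences between replicates in covered share correlated at -0.221 to 0.0115 over the 6 pairs of groups. A shift common to all loci of a replicate does not enter such a correlation. It therefore cannot tell whether replicate numbers pair the libraries. With a replicate block (16 relabellings, smallest p 0.125), exact permutation p was 0.75 and 0.75 for the peak differences of -5.25 and 3.25, and 0.125 and 0.625 for the share differences of -15.3 and -4.42. The remaining settings kept directions. No setting allows a p below 0.0556, which was reached once, by co-culture minus monoculture of the share (-10.2 points) without co-culture hypoxia replicate 2. Summits of wide peaks held few fragments, a median of 12 to 17 per list, and the part of depth in this was not tested.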

Other observations

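The X chromosome peaks covered other gene families than the autosomal ones. Btbd35f genes and Spin2 relatives lay under 3 loci: chrX:3233351-5277686, wide in 6 libraries, and chrX:32023304-33382355 and chrX:33418463-34318465, both wide in all 8. The −log10 p of the wide peaks there was 5.40 to 48.8. Rhox genes, homeobox genes of the reproductive tract, lay under a locus of 97.5 kb on chrX:37382788-37480248 that was wide in 4 libraries. Slx, a gene of male germ cells, lay in a locus wide in 3, and Cldn34c2 and Cldn34c3, of the claudin family, in one wide in 7.

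Between replicates, more loci were covered further in replicate 2 than in replicate 1 in co-culture normoxia (87 against 12 of 128). The same count was 65 against 31 in monoculture normoxia, 60 against 34 in co-culture hypoxia and 42 against 44 in monoculture hypoxia.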
